A study of Homo sapiens with 4 samples.

Results

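NR3C1, which encodes the glucocorticoid receptor, and 2 of its targets, FKBP5 and ZBTB16, were examined in the H3K27ac landscape of a pair of B-cell precursor acute lymphoblastic leukemia (B-ALL) cell lines. The 3 genes were chosen by name, not by their peaks, and all peaks were taken that overlapped the hg19 gene body, widened by 10 kb on each side, by at least 1 bp. This gave 20 of the 44626 H3K27ac peaks of REH and 24 of the 74504 peaks of 697. REH carries the ETV6/RUNX1 fusion and 697 does not. Both are established lines, grown in the same serum-supplemented medium, and no glucocorticoid treatment is named for either. Each line gave 1 H3K27ac ChIP-seq library and 1 input library, so the values below have no replicate error, no test was possible, and every difference between the lines is one between 2 libraries. The lines also differ in much besides the fusion, and the 2 cannot be told apart. The depth was 65241657 filtered ChIP tags in REH and 68911420 in 697.

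H3K27ac is an acetylation of histone H3 found at active promoters and enhancers, and ChIP-seq of the mark shows where in the genome it is enriched. The glucocorticoid receptor rests in the cytoplasm in a complex with HSP90 and its cochaperones. After binding hormone it enters the nucleus, where it binds DNA elements made of an inverted repeat of the AGAACA motif and changes the transcription of nearby genes. Glucocorticoids are a mainstay of B-ALL treatment because they kill lymphoid cells through this receptor. FKBP5 encodes FKBP51, a cochaperone that lowers the hormone affinity of the receptor and is itself induced by it through elements in its introns. ZBTB16 encodes PLZF, a zinc-finger transcription repressor that glucocorticoids also induce in many cell types.

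All 3 genes carried H3K27ac peaks in both lines, and with all peaks counted the bases under them differed by less than 2-fold between the lines at each gene. With limits on the q-value or p-value column NR3C1 and ZBTB16 were more than 2-fold higher in REH. At the q-value limit, 31.8% of the 200 kb windows of the genome with such a peak were also called higher in REH. These columns are uncertain, as given below. At NR3C1 peaks covered 13580 bp in REH and 10194 bp in 697, at FKBP5 15277 and 18842 bp, and at ZBTB16 12660 and 11975 bp. What differed was the place: at NR3C1 and FKBP5 both lines had peaks at the start of the gene, whereas at ZBTB16 neither line had one there and all peaks lay 20 kb or more inside the gene. With the flanks of 10 kb included, FKBP5 was the most covered in both lines, with 8.68% of its window under peaks in REH and 10.7% in 697. NR3C1 followed with 7.59% and 5.69%, and ZBTB16 with 5.97% and 5.65%. Without the flanks FKBP5 was no longer first in REH, with 11665 bp under peaks against 13517 bp at NR3C1. In 697 FKBP5 stayed first without them, with 13498 bp against 10194 bp at NR3C1 and 11975 bp at ZBTB16. With 1 library per line no spread can be set against the order of the genes, and in 697 the values for NR3C1 and ZBTB16 were nearly the same.

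**Figure D1:**
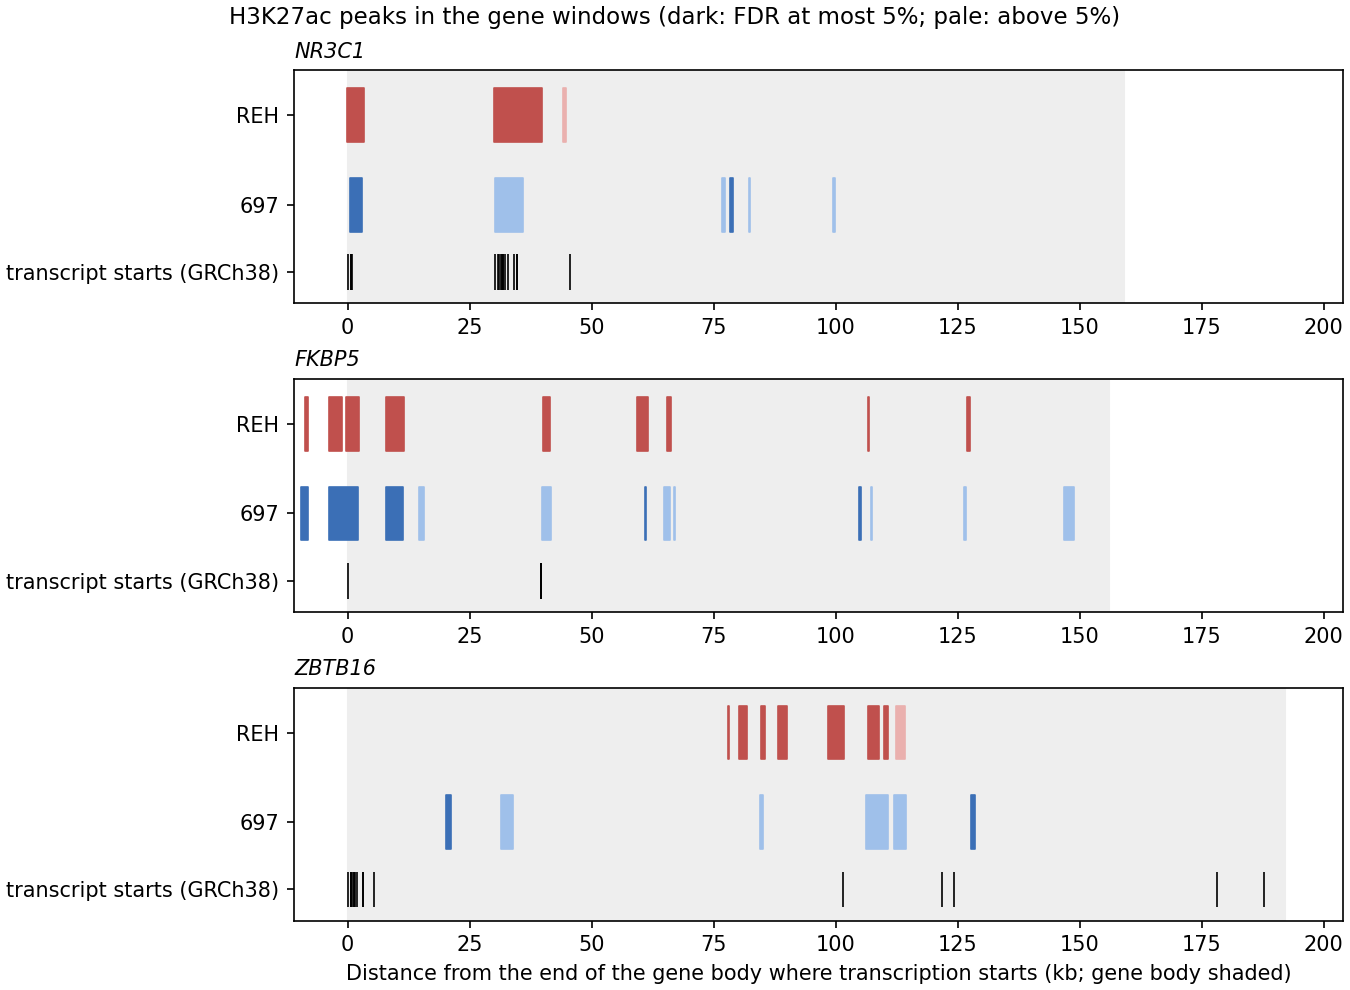
H3K27ac peaks in the windows of the 3 genes, by distance in kb from the end of the gene body where transcription starts, with REH in red, 697 in blue, and the starts of annotated transcripts (GRCh38, as distances from the gene start) as black ticks. Dark bars are peaks with a deposited false discovery rate of at most 5% and pale bars those above it. Peaks sit at the start of NR3C1 and FKBP5 in both lines, and between 78 and 114 kb inside ZBTB16 in REH.

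NR3C1 (ENSG00000113580) lies on the minus strand of chromosome 5, with its hg19 body between 142657 and 142816 kb. The annotation (GENCODE release 44, GRCh38) starts 4 of its 17 transcripts within 0.8 kb of the outer end, 12 between 30.2 and 34.7 kb inside it and 1 at 45.5 kb, so that the receptor can be transcribed from an outer and an inner group of promoters. RefSeq promoters (GRCh38.p14) were matched for NR3C1 and FKBP5. Of the 7 NR3C1 promoters, the outermost and the first of the inner group are shown, 1 for each of the regions that had a peak in both lines. Each runs from 250 bases before the start to 30 from it, read 5′ to 3′ on the minus strand, at chr5:143435483-143435762 and chr5:143405326-143405605. Capitals mark matches, on either strand, to the AGAACA motif of the glucocorticoid receptor, the RUNX motif TGTGGT and the GC box GGGCGG.
NR3C1 outer promoter: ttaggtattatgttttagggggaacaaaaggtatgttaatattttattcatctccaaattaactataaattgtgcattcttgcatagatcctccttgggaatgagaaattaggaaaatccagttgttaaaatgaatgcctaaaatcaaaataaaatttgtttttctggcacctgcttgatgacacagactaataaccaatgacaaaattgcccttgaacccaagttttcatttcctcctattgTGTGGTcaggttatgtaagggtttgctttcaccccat
NR3C1 inner promoter: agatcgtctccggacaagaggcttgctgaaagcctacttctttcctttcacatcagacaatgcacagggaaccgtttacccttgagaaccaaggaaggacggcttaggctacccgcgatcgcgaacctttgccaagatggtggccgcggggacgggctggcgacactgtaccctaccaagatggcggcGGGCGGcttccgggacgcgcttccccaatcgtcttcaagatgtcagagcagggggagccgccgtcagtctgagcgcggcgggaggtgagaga

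The outer promoter is poor in G and C. Over its full 300 bp the outer one was 34.7% G and C with 0 CG dinucleotides, and 4.01% of the 35116 promoters in the RefSeq table had a lower share. The inner one was 61.7% G and C with 26 CG dinucleotides, near the median promoter (58.7%) and above 57.7% of promoters, and the promoter 31.8 kb inside the gene reached 82.3%, above 98.9% of all promoters. A GC box was found in 5 of the 7 NR3C1 promoters, against 45.0% of all promoters, and a RUNX motif in 1 of 7, against 13.1%. The AGAACA motif was found in 0 of 7, against 14.8% of all promoters. A match is only a run of letters, and the absence of one says nothing about what binds the promoter.

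In REH, 2 long peaks covered these regions. The outer peak spanned 3366 bp (chr5:142812698-142816063), 0 to 3 kb from the gene start, and was longer than 91.7% of all REH peaks. The inner peak spanned 9724 bp (chr5:142776283-142786006), 30 to 40 kb inside the gene, and was longer than 99.4% of them. It was the longest peak at any of the 3 genes in either line and made up 71.6% of the bases under peaks at NR3C1 in REH. The remaining REH peak, of 490 bp at 44 to 45 kb, had a false discovery rate (FDR, from the deposited q-value) of 21.0%. The FDRs of single peaks are conversions of the deposited q-values, and are to be read with the limit stated in the last paragraph of these results.

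In 697, both regions were covered by shorter peaks that lay wholly inside those of REH. The outer peak spanned 2468 bp (chr5:142813137-142815604) and was longer than 86.6% of 697 peaks. The inner peak spanned 5752 bp (chr5:142780108-142785859) and was longer than 97.9% of them. The inner peaks of the lines thus began at the same distance from the gene start, 30 kb, and differed at the far end, which lay at 40 kb in REH and at 36 kb in 697. The other 4 peaks of 697 had no REH peak over them, as held for 61.1% of all 697 peaks. These 4 were 197 to 631 bp long and lay 77 to 100 kb inside the gene, within an interval where REH had no peak. Beyond 100 kb neither line had a peak for 69132 bp, up to the end of the window.

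FKBP5 (ENSG00000096060) lies on the minus strand of chromosome 6, with its hg19 body between 35541 and 35697 kb. It has 4 annotated transcripts, of which 1 starts at the outer end and 3 start 39.6 to 39.7 kb inside. Both RefSeq promoters are shown because both starts lay at or beside peaks of both lines, and because the outer one holds the AGAACA motif. They stand at chr6:35728554-35728833 and chr6:35688886-35689165 (GRCh38.p14, minus strand), over the same bases relative to the start and with the same capitals as above.
FKBP5 outer promoter: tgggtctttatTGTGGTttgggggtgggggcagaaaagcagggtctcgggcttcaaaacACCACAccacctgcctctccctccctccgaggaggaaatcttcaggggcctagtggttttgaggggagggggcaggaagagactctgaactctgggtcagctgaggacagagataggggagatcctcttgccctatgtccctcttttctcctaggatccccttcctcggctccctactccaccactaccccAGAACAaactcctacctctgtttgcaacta
FKBP5 inner promoter: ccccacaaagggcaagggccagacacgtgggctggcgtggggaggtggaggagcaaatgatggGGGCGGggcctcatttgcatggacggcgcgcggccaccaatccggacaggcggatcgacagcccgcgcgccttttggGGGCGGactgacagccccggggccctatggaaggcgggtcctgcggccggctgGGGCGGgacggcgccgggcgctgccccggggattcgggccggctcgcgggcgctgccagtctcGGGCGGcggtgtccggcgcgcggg

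The outer FKBP5 promoter, over its full 300 bp, was 55.7% G and C with 3 CG dinucleotides, fewer than the median promoter's 14, and held 1 AGAACA motif, 2 RUNX motifs (1 on each strand) and 0 GC boxes. The inner one was 76.0% G and C with 38 CG dinucleotides, more than 90.1% of promoters held, and had 6 GC boxes, of which 4 fall in the printed stretch. As at NR3C1, the outer start was thus the one poorer in CG. The full receptor element, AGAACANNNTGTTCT, was in 0 of the 9 promoters of the 2 genes and in 1 promoter of the whole table.

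H3K27ac at FKBP5 lay on both sides of the outer start and at several places along the gene body. In REH, a peak of 2677 bp (chr6:35694594-35697270) reached the start, and another of 2648 bp (chr6:35698103-35700750) lay 1 to 4 kb before it. In 697 a single peak of 6071 bp (chr6:35694791-35700861) ran across both, from 4 kb before the start to 2 kb inside, and shared 5128 bp with them. With peaks within 1000 bp of each other merged, the REH pair also became 1 peak, of 6157 bp. The 6071 bp peak was the longest of 697 at the 3 genes, longer than 98.2% of all 697 peaks. Next to it, 8 to 12 kb inside the gene, REH had its longest FKBP5 peak, as deposited, at 3640 bp (chr6:35685499-35689138), and the 697 peak of 3364 bp lay wholly inside that one.

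The inner FKBP5 start, about 40 kb inside the gene, had a peak of 1448 bp in REH (chr6:35655590-35657037) and of 1854 bp in 697 (chr6:35655334-35657187), whose FDR was 14.2%. Deeper in the gene the lines shared regions at 59 to 66 kb. The REH peak at 59 to 62 kb spanned 2364 bp, and the 697 peak over it 236 bp. The order was the other way at 65 to 66 kb, where REH had 933 bp and 697 had 1168 bp. Before the gene, 8 to 10 kb from its start, both lines had a peak, of 694 bp in REH and 1483 bp in 697. ARMC12, a protein-coding gene on the opposite strand, is annotated to start 8.4 kb before FKBP5, as is a lncRNA on the FKBP5 strand. The position of the peak does not tell these genes apart.

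Further inside FKBP5, beyond 100 kb, no peak of one line overlapped a peak of the other. REH had peaks of 213 bp at 107 kb and of 660 bp at 127 kb. In 697 there were peaks of 455 bp at 105 kb (FDR 3.73%), of 339 bp at 107 kb and of 398 bp at 126 to 127 kb. Of the 9 REH peaks at FKBP5, only the 2 named here had no 697 peak over them, against 35.9% of all REH peaks. Of the 12 peaks of 697, 6 had no REH peak over them, against 61.1% of all 697 peaks. The longest of these 6 was one of 2205 bp at 147 to 149 kb with an FDR of 13.1%.

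ZBTB16 (ENSG00000109906) lies on the plus strand of chromosome 11, with its hg19 body between 113930 and 114122 kb, and 15 of its 20 annotated transcripts start in its first 5.4 kb. No peak of either line lay there. The nearest peak inside the gene was 78 kb from the start in REH and 20 kb in 697, and the nearest peak before the start was 180 kb away in REH and 183 kb in 697. The gene therefore differed from NR3C1 and FKBP5, at which a peak lay within 2 kb of the start in both lines.

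The 8 REH peaks of ZBTB16 formed a cluster from 78 to 114 kb inside the gene. The longest spanned 3350 bp (chr11:114028399-114031748) at 98 to 102 kb, where a transcript is annotated to start at 101.4 kb, and a lncRNA on the opposite strand at 102.1 kb. The peak with the lowest FDR at any of the 3 genes, 2.19e-18%, spanned 1751 bp (chr11:114018230-114019980) at 88 to 90 kb. Neither of these peaks had a 697 peak over it. The others ranged from 294 to 2368 bp, and 7 of the 8 had an FDR of at most 5%, as did 87.2% of all REH peaks.

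In 697, 3 of the 6 ZBTB16 peaks lay within the same interval. The longest, 4495 bp (chr11:114036109-114040603) at 106 to 111 kb, ran across 2 REH peaks of 2368 and 851 bp and shared 3161 bp with them. Beside it, at 112 to 114 kb, 697 had 2331 bp and REH 1651 bp. The third, of 739 bp at 84 to 85 kb, overlapped an REH peak of 731 bp. The other 3, at 20 to 21, 31 to 34 and 128 to 129 kb, had no REH peak over them and spanned 1015, 2567 and 828 bp. Over the genome, 61.1% of 697 peaks had no REH peak over them. From 129 kb on, neither line had a peak for 73452 bp, an interval that holds the last 2 annotated transcript starts of ZBTB16, at 178.2 and 187.7 kb. NNMT, a protein-coding gene beyond the end of ZBTB16, is annotated to start at 198.7 kb.

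The amount of covered sequence was then set against the whole genome. The ratio of bases under peaks in 697 to those in REH was 0.751 at NR3C1, 1.23 at FKBP5 and 0.946 at ZBTB16. Among 10582 windows of 200 kb with a peak in either line, 56.1% differed at least 2-fold or had a peak in only 1 line. REH was higher in 21.6% of windows and 697 in 34.4%, whereas 0 of the 3 genes passed this limit in either direction with all peaks. With an FDR limit of 5%, 2 of the 3 genes passed it, both higher in REH, as were 31.8% of windows with such a peak. The FDR column is uncertain, as given below. With all peaks, where both lines had a peak, the median window ratio was 1.31 (quartiles 0.809 to 2.32). Of these windows, 22.1% had a lower ratio than NR3C1, 46.8% than FKBP5 and 32.3% than ZBTB16. FKBP5 and ZBTB16 thus lay between the quartiles, and NR3C1 just below the lower one. All 3 had more covered sequence than most windows, since 85.4% to 88.8% of windows had less in REH and 69.6% to 83.7% had less in 697. The windows were not matched to the genes for size or covered sequence, so the shares called are not those of like regions.

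**Figure D2:**
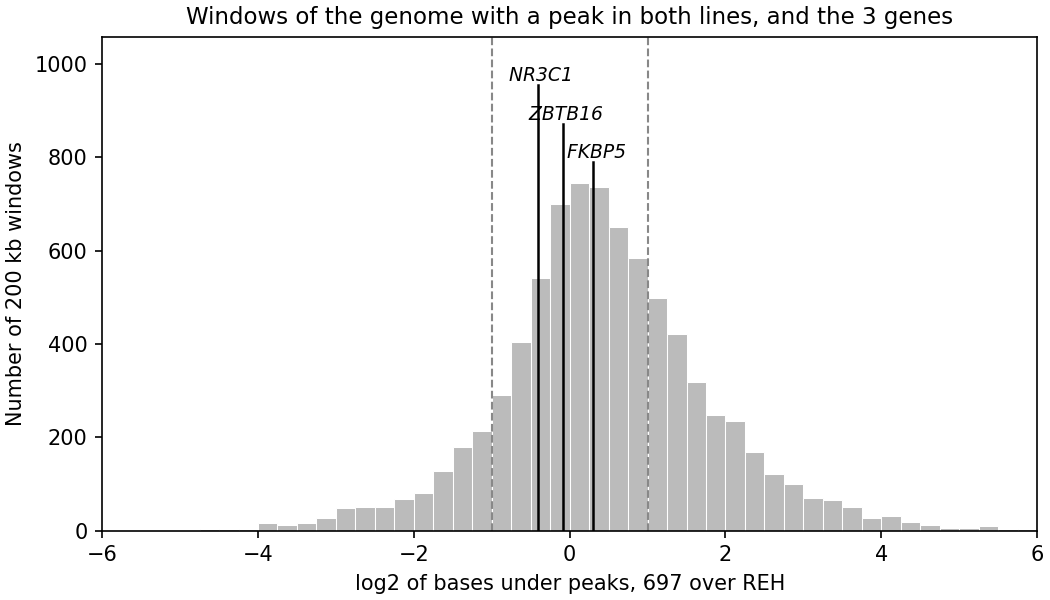
Number of 200 kb windows of the genome, among those with a peak in both lines, by the log2 ratio of bases under peaks in 697 to those in REH. Vertical lines give NR3C1 (-0.41), ZBTB16 (-0.08) and FKBP5 (0.30), and dashed lines mark a 2-fold difference, which none of the 3 genes reached.

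The bases covered were only partly the same in both lines. Of the sequence under a peak in either line, 52.8% was under peaks of both at NR3C1, 51.0% at FKBP5 and 27.2% at ZBTB16, against 30.6% over the genome. In windows of 200 kb with a peak in both lines the median share was 32.2% (quartiles 18.5% to 46.2%), so that NR3C1 and FKBP5 lay above the upper quartile and ZBTB16 within the quartiles. These windows too were not matched to the genes for size or covered sequence. At NR3C1, 80.6% of the bases covered in 697 were covered in REH and 60.5% of those covered in REH were covered in 697. At FKBP5 these shares were 61.1% and 75.4%, and at ZBTB16 they were 44.0% and 41.7%. NR3C1 thus had most of its unshared sequence in REH (5360 bp, against 1974 bp in 697) and FKBP5 in 697 (7322 bp, against 3757 bp in REH), while ZBTB16 had about as much in each (7387 bp in REH and 6702 bp in 697).

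**Figure D3:**
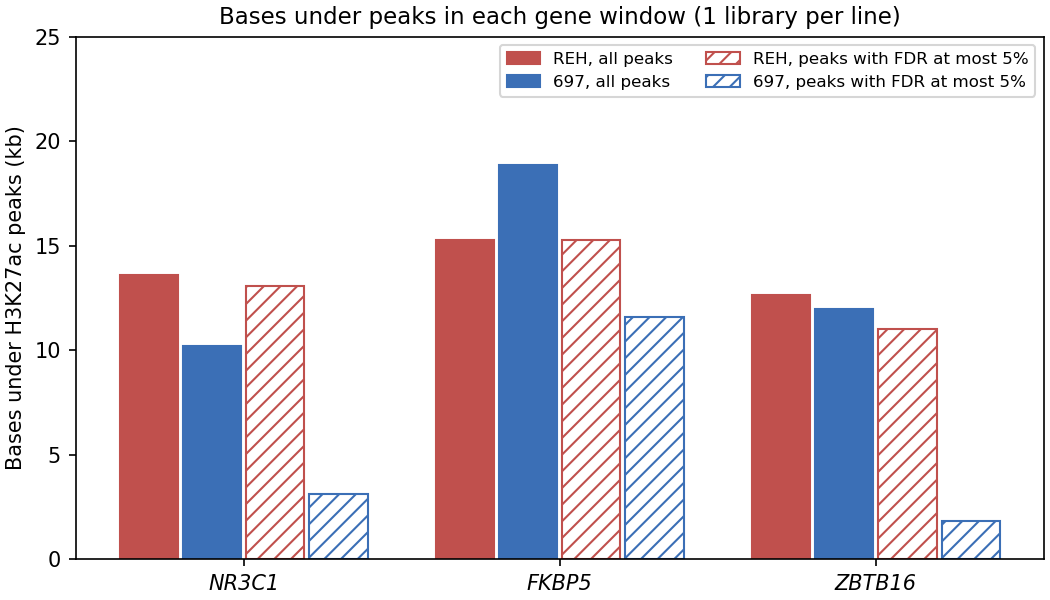
Bases under H3K27ac peaks (kb, bars from 0) at NR3C1, FKBP5 and ZBTB16 in REH and 697, for all peaks and for peaks with an FDR of at most 5%. With all peaks the lines lie within 2-fold of each other at each gene (at NR3C1, 13580 bp in REH and 10194 bp in 697), and with the limit of 5% the 697 bars of NR3C1 and ZBTB16 fall to 3099 and 1843 bp.

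Counted by peaks, 7 of 20 in REH (35.0%) were overlapped by none in 697, against 35.9% over the whole genome. In 697, 13 of 24 (54.2%) were overlapped by none in REH, against 61.1% over the genome. With so few peaks, both shares were near the background. Joined across the lines, the peaks made 31 separate sites, of which 11 were in both lines, 7 in REH only and 13 in 697 only. The share in both was 35.5%, against 30.7% of the 88849 sites of the genome. At FKBP5 6 of 14 sites were in both lines, at ZBTB16 3 of 10 and at NR3C1 2 of 7.

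The peaks of the 3 genes were of mixed length. Their median was 1657.5 bp in REH, against 1060 bp over all REH peaks, and 1039.5 bp in 697, against 871 bp. A length of at least 1000 bp was reached by 12 of 20 in REH, where 52.3% of all peaks did so, and by 13 of 24 in 697, where 44.2% did. The shortest was a 697 peak of 197 bp at NR3C1 and the longest the REH peak of 9724 bp at the inner starts of the same gene.

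**Figure D4:**
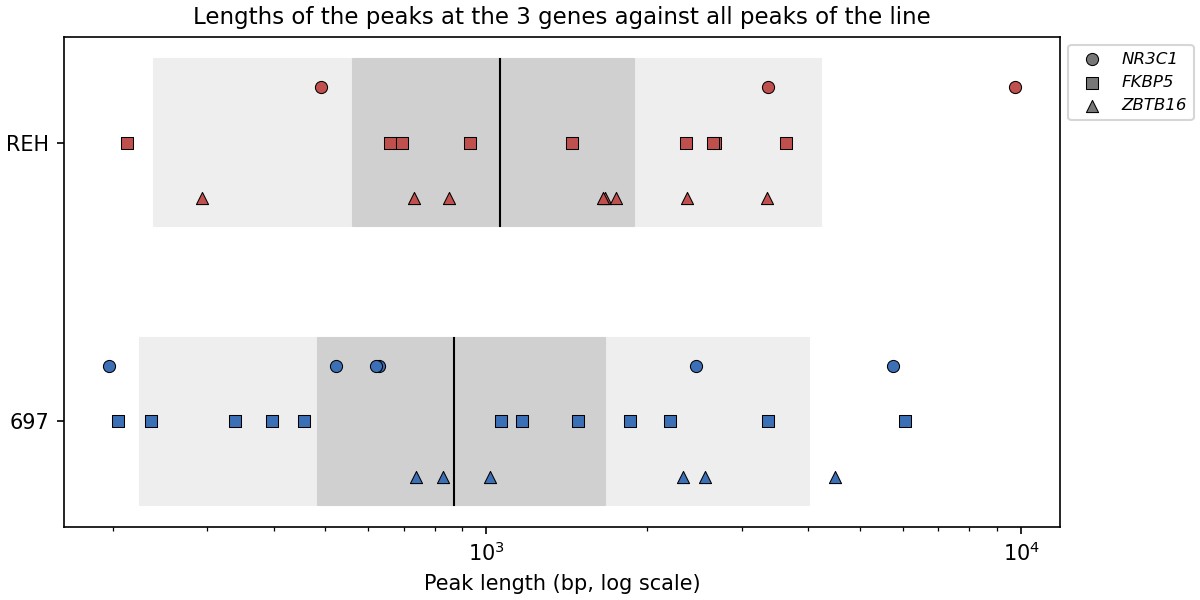
Length in bp (log scale) of each peak at NR3C1 (circles), FKBP5 (squares) and ZBTB16 (triangles) in REH and 697. Grey boxes span the 5th to 95th percentile (light) and the quartiles (dark) of all peaks of the line, and the black line is their median (1060 bp in REH, 871 bp in 697). The inner NR3C1 peak lies above the light box in both lines.

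The lines differed more when only peaks with an FDR of at most 5% were kept. In REH 18 of the 20 peaks (90.0%) met it, against 87.2% of all REH peaks, while in 697 9 of 24 (37.5%) did, against 64.6%. Among the 697 peaks above 5% were those at the inner NR3C1 starts (6.78%) and the long ZBTB16 peak (17.5%), whereas the outer NR3C1 peak (0.641%) and the FKBP5 peak across the start (1.08e-06%) stayed. Bases under peaks were then 13090 bp in REH and 3099 bp in 697 at NR3C1, 15277 and 11609 bp at FKBP5, and 11009 and 1843 bp at ZBTB16, with ratios of 0.237, 0.76 and 0.167. At this limit NR3C1 and ZBTB16 were more than 2-fold higher in REH with peaks left in both lines. Among windows with such a peak, 31.8% were at least 2-fold higher in REH or had one in REH only, and 6.18% and 3.65% of the windows with such peaks in both lines had lower ratios. The columns were then compared over the 24932 pairs in the genome in which each peak overlapped exactly 1 peak of the other line. Spearman's rho between the lines was 0.473 for peak length, but 0.025 for pileup, 0.034 for fold enrichment, 0.027 for the p-value column and 0.027 for the q-value column. Within each list the q-value column was also almost unrelated to peak length, with a rho of 0.094 in REH and 0.076 in 697. Whether these columns stand beside the right peaks could not be settled from the lists, so the FDR of a single peak and every result from a limit on FDR or p-value are uncertain, while positions and lengths do not rest on them.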

How the data were processed

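H3K27ac ChIP-seq and input DNA were measured in REH and 697, with 1 library of each kind per line. According to the study's methods and the submitters' processing notes, the authors aligned reads to hg19 (with Bowtie in the methods and Bowtie2 in the notes) and called broad peaks with MACS2 (2.1.0.20150731 per the file headers, whereas the methods name an earlier MACS), each ChIP library against the input of its line, with q-value limits of 0.05 for strong and 0.1 for weak regions. The deposited rows give each peak's position and length, its pileup signal, its fold enrichment over input as a ratio, and its p-value and q-value as −log10. FDR in percent was computed here from the deposited −log10 q-value of each row. Some of these FDRs at the 3 genes lay above the limit for weak regions, up to 28.1% in 697 (ZBTB16) and 21.0% in REH (NR3C1). The percent is therefore a conversion of the value in the row, and cannot be read as the FDR at which the peak was called. The cause was not tested. The main comparison used positions and lengths, and limits on FDR or p-value were alternatives. Apart from these limits, pileup, fold, p-value and q-value were compared between the lines only as correlations. These used pairs in which each peak overlapped exactly 1 peak of the other line. They were also correlated with peak length within each list.

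Peaks overlapping a gene window by 1 bp were taken, and bases under them were counted inside the window. A gene was said to differ at a ratio of 2 or more. The same was computed for 200 kb windows of the genome. Distances are from gene ends known to 1 kb, with strand and transcript starts from GENCODE release 44, each distance counted within its own build, and no coordinate was converted. The scripts ran under Python 3.11.15 with pandas 2.3.3, numpy 2.4.6, matplotlib 3.10.9 and scipy 1.17.1. The overlap step was tested on a copy of the REH peaks with some peaks moved. The window, fold and merging steps were tested on small made-up cases.

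The genes and lists were chosen with earlier results of these data known. The genes named were the 3 members, and ARMC12 and NNMT among the annotated genes within 10 kb. A list of 28 further pathway genes and the cell type markers of the lines were not analysed here, since the annotation used was of GRCh38. For the same reason no sequence of a peak is printed. Alternatives covered the flank, the FDR, p-value and length limits, equal numbers of peaks, merging, the overlap and the fold.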

Additional observations from a re-analysis of the deposited data

How the results depend on the processing

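With FDR at most 5%, −log10(p) of at least 10, or equal numbers of peaks per line ranked by p-value, 2 of the 3 genes (NR3C1 and ZBTB16) were at least 2-fold higher in REH, against 0 with all peaks. The ratio of covered bases, 697 to REH, was then 0.237, 0 and 0.228 at NR3C1 and 0.167, 0 and 0.0654 at ZBTB16, where 0 means that no 697 peak was left. At FKBP5 it was 0.76 with the FDR limit and 0.73 with equal numbers by p-value, and it has no value with −log10(p) of at least 10, which left no peak in either line. Over the genome, 31.8% of the 200 kb windows with such a peak were called higher in REH with the FDR limit. No such share was computed for the p-value settings. The cause was not tested, and these 3 settings rest on columns that were almost unrelated between the lines. No gene passed 2-fold with no flank, a flank of 25 kb, peaks of at least 1000 bp, equal numbers ranked by length, peaks merged, or an overlap of 50%, nor were any called at the other fold limits tried. No paired analysis was possible because each line has 1 library and no result comes from a test.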
